A study of Mus musculus with 12 samples.

Results

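A set of 103 genes stood higher in MLO-Y4 cells at the 2-g position of a superconducting magnet than in each of 3 other groups. The set leaves out hypoxia-related and other gene families by name, but it still holds genes widely described as hypoxia-induced. The genes were chosen by group means of the deposited log2 values. A gene was taken when its 2-g mean lay at least 0.35 above the μ-g, 1-g and control means and its mean over all 12 arrays exceeded 7, with the brightest transcript cluster standing for each gene. In all, 142 of 19938 genes (0.712%) met both conditions. Of these, 39 belonged to families left out by name (collagens, Adamts, Kdm, Pfk, P4ha, Plod, Egln, Stc, Aldo and Ndrg genes and single genes such as Bnip3, Ak4, Car9, Pdk1 and Slc2a1), which left the 103. Because the 2-g values chose the genes, every difference between 2-g and another group is given below as a description with no test.

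MLO-Y4 is a mouse osteocyte-like line, 1 clone from long bone of a transgenic mouse, and total RNA of the cells was hybridised to Mouse Gene 1.0 ST arrays of Affymetrix after 48 h. The study asked how apparent gravity and a strong magnetic field with a steep gradient (LG-HMF) act on osteocyte transcripts. The 2-g, μ-g and 1-g cells were kept in the magnet bore, where the 1-g position holds the strongest field and no force gradient and the 2-g and μ-g positions hold an equal, weaker field with opposite force directions. The control cells grew at normal earth gravity outside the magnet. Each group had 3 arrays, called biological replicates in the labels, and nothing states that they came from separate cultures, so the p-values measure only the spread between these samples. All groups shared the medium, the collagen-coated flasks before seeding and the set temperature and CO2 level, but the bore had its own temperature and gas control and the control cells stood outside it. Since the field is equally strong at 2-g and μ-g, these groups differ in the direction of the force and in their position in the bore, which cannot be told apart. In 2-g against 1-g the field strength differs as well, and in 2-g against control so do the field and the culture in the bore.

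Cells short of oxygen stabilise the hypoxia-inducible factors (HIF), transcription factors whose α subunits are otherwise hydroxylated by the Egln enzymes and degraded. Stabilised HIF binds the letters ACGTG or GCGTG near its target genes and raises glycolytic enzymes, respiratory chain isoforms, iron- and 2-oxoglutarate-dependent oxygenases and angiogenic factors. Osteocytes lie in bone matrix far from vessels and are known to use this pathway, while they also sense load and secrete signals to osteoblasts and osteoclasts.

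The array medians ran from 7.04 to 7.12 and Pearson's r between pairs of arrays, taken over transcript clusters that are no independent replicates, from 0.995 to 0.998. The osteocyte markers Pdpn and Gja1 averaged 12.22 and 12.12, whereas Dmp1, Mepe and Phex averaged 5.63, 5.11 and 5.43, below the floor of 7, which stood near the array medians. None of 7 mast cell markers, 4 of 7 macrophage, 2 of 7 osteoclast, 2 of 6 adipocyte and 2 of 7 endothelial markers passed that floor, and none of the macrophage, osteoclast and adipocyte markers is among the 103 genes. The mean of a marker list per array tended to be low at 2-g for several of these lists. It ran from 7.30 to 7.42 in 2-g, from 7.48 to 7.54 in μ-g, from 7.46 to 7.48 in 1-g and from 7.42 to 7.47 in control for osteoclast markers, and from 5.78 to 5.87 in 2-g, from 5.90 to 5.97 in μ-g, from 5.86 to 6.01 in 1-g and from 5.89 to 6.02 in control for mast cell markers. For macrophage markers it ran from 7.05 to 7.10 in 2-g, from 7.16 to 7.24 in μ-g, from 7.11 to 7.25 in 1-g and from 7.08 to 7.25 in control, and for adipocyte markers from 7.48 to 7.56 in 2-g, from 7.57 to 7.66 in μ-g, from 7.57 to 7.69 in 1-g and from 7.50 to 7.57 in control. One of the endothelial genes above the floor, Clec14a, is among the 103 genes, and the other, Vwf, averaged 7.15 in 2-g and 7.25 in control, with Pecam1, Cdh5, Kdr and Tek at 6.21 or less over all arrays. The mean of the 7 endothelial markers per array ran from 6.34 to 6.46 in 2-g and from 6.32 to 6.41 in control. The mean of the 4 measured osteoblast markers ran from 8.25 to 8.32 in 2-g, from 8.12 to 8.29 in μ-g, from 8.14 to 8.17 in 1-g and from 8.03 to 8.19 in control, and the part of these lists in the results was not tested. One array stood apart for the genes described here. In control replicate 2, 99 of the 103 genes lay above their own control mean, by a median of 0.18, against a median of 0.00 over 10987 genes above the floor outside the named families. The counts, medians and calls against control are therefore also given without that array, an alternative added after the values were seen.

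The label of the set as lying outside the known hypoxia families holds only for the families left out by name. From a list of 55 other genes taken here as HIF-induced, 51 were measured, 46 exceeded the floor and 11 of these (23.9%) were among the 103. They were Tmem45a, Rcor2, Ankrd37, Tet2, Pgm1, Zfp395, Jmjd6, Selenbp1, Cox4i2, Narf and Ero1a. Hif1a and Epas1, which encode HIF subunits, are on the list too. Whether HIF induces each listed gene was not tested. The list was drawn up with earlier results of these data known, so this share is a description with no test. The whole set holds 103 of the 10987 genes above the floor outside the named families. In addition to these 11 genes, the set was sorted by role after its values were seen into 20 matrix and secreted proteins, 17 receptors and signalling proteins, 10 nuclear or RNA-modifying proteins, 10 non-coding RNAs, 10 enzymes of metabolism and 25 chaperones, membrane and other proteins.

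In 76 of the 103 genes all 3 2-g arrays exceeded all 9 other arrays, which the rule did not require but which follows closely from it (2.59% of all 19938 genes did so). The other 27 genes overlapped with at least 1 array of another group. The margin, meaning the 2-g mean minus the highest other group mean, had a median of 0.45 and ran from 0.35 to 1.01 on the log2 scale. The margin exceeded 1.5-fold in 22 genes. The highest of the other groups was control for 69 genes, 1-g for 18 and μ-g for 16, and without control replicate 2 it was control for 40. The median difference over the 103 genes was 0.55 for 2-g minus μ-g, 0.58 for 2-g minus 1-g and 0.48 for 2-g minus control. In bulk RNA a larger share of cells that express a gene and more RNA per cell cannot be told apart.

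**Figure D1:**
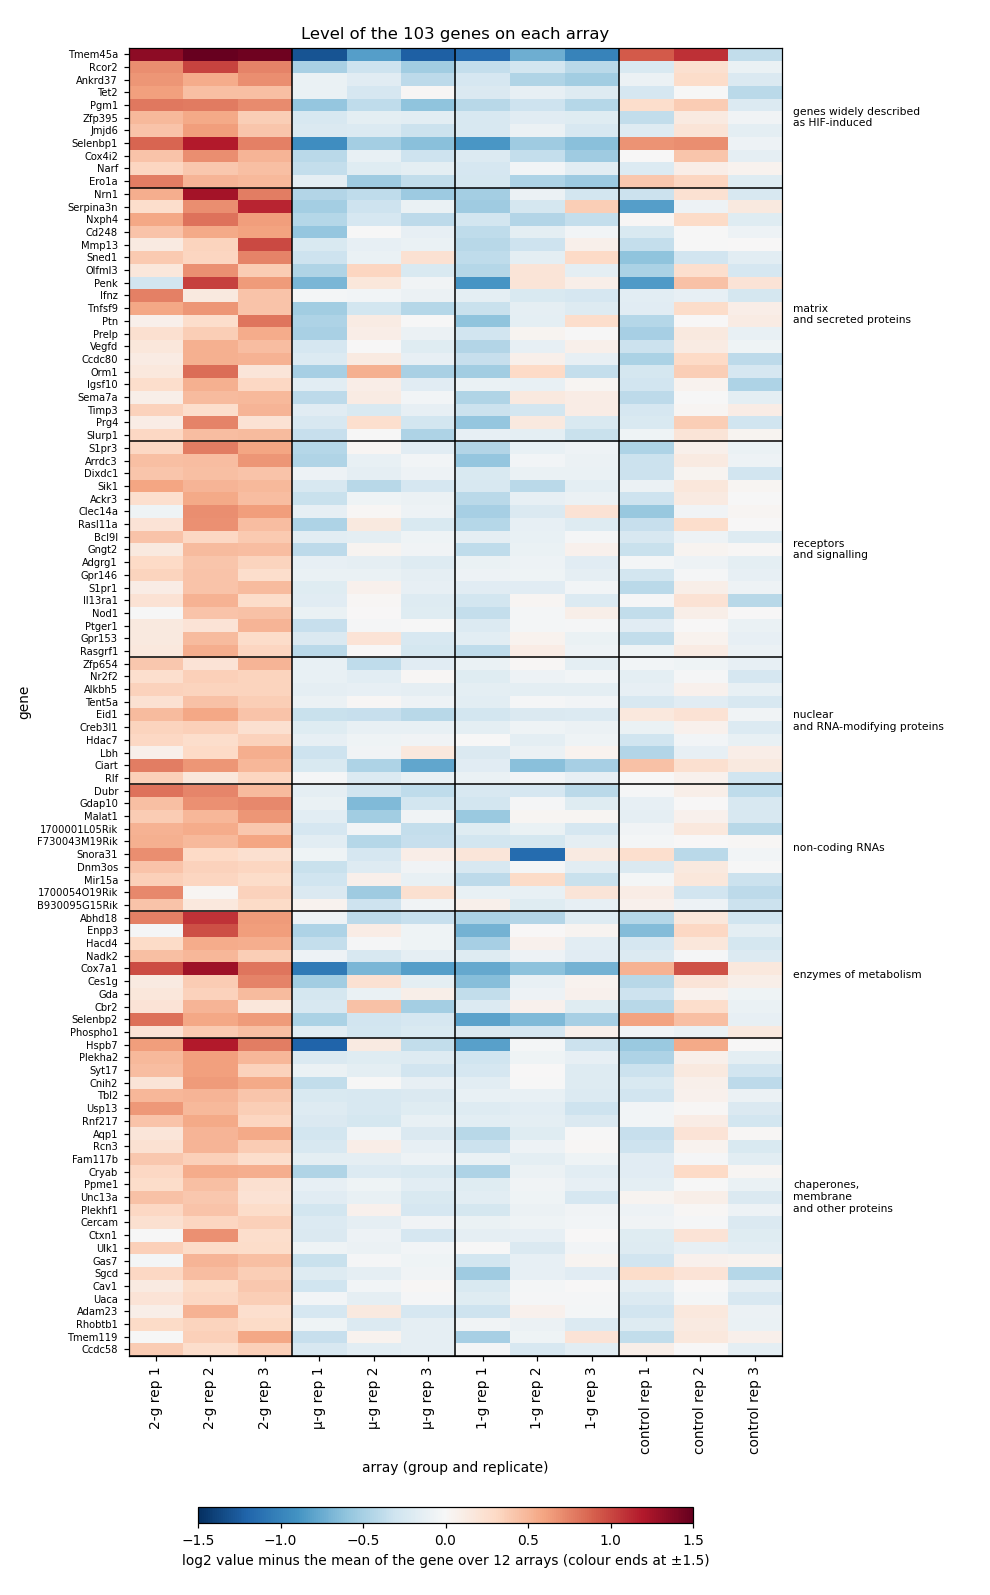
Level of the 103 genes (rows, grouped by role and ordered by margin within a role) on the 12 arrays (columns), as the log2 value minus the mean of the gene over the 12 arrays. The 3 2-g columns are red for nearly every gene. Most of the HIF-list genes, though not Tet2, and Cox7a1, Selenbp2, Ciart and Eid1 are bluer in μ-g and 1-g than in control.

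The promoters of 5 of the 7 genes that fell inside the magnet in a comparison without 2-g are shown here, because a reader can see in them which of the HIF-type letters they hold. Each sequence is the 250 bases before the RefSeq start on GRCm38.p6, with ACGTG and GCGTG, read on either strand (CACGT and CACGC on the other), in capitals.
Tmem45a, chr16:56886164-56886413, minus strand: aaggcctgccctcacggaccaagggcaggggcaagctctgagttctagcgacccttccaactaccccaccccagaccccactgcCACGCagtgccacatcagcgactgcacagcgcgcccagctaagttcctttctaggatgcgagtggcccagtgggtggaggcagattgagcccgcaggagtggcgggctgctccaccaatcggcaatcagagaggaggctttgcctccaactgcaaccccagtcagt
Pgm1, chr4:99929201-99929450, plus strand: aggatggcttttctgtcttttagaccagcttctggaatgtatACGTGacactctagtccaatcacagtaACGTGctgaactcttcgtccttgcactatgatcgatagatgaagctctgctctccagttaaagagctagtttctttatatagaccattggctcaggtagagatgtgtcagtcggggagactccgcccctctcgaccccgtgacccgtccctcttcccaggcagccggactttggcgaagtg
Selenbp1, chr3:94932833-94933082, plus strand: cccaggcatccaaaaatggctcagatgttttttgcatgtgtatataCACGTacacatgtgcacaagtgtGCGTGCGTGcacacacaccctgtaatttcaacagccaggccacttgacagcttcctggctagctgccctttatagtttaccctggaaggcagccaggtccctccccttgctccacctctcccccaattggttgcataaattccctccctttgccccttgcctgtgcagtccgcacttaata
Selenbp2, chr3:94693323-94693572, plus strand: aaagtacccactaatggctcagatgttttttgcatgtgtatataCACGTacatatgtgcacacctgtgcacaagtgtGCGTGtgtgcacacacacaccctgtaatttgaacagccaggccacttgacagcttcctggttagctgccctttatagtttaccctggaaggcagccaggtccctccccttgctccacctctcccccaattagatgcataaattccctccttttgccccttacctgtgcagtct
Cox7a1, chr7:30183921-30184170, plus strand: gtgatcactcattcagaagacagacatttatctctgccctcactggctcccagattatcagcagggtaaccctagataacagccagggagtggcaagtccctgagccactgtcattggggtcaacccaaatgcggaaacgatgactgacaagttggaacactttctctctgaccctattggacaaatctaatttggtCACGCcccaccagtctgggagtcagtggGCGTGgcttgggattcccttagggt
Pgm1 held ACGTG at 2 places, Cox7a1 held GCGTG once on each strand, and Tmem45a held it once. Selenbp1 and Selenbp2, both on chromosome 3, each held CACGT once and GCGTG at least once. Such letters are common. Counted over the 300 bases from 250 before to 50 after each start, they occurred in 53 of the 75 promoters of the set that could be matched (70.7%), in 68.8% of 8842 promoters of genes above the floor outside the named families and in 46.7% of all 27025 promoters of the same length. A match describes letters, not a bound site.

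The 11 HIF-list genes had margins from 0.41 to 0.99, and all 11 kept their 3 2-g arrays above the 9 others. Such a lack of overlap follows closely from the rule and held in 76 of the 103 genes (2.59% of all genes). Tmem45a, a transmembrane protein known as hypoxia-induced in several cell types, had 10.94, 11.40 and 11.05 in 2-g, 8.30, 8.77 and 8.37 in μ-g, 8.45, 8.86 and 8.59 in 1-g, and 10.51, 10.69 and 9.22 in control. The 2-g level of Tmem45a was 6.28-fold that of μ-g, 5.63-fold that of 1-g and 1.98-fold that of control, and the 3rd control array lay more than 1 log2 unit below the other 2. Pgm1, the phosphoglucomutase that links glycogen to glucose 6-phosphate, had 11.62, 11.62 and 11.55 in 2-g, 10.26, 10.45 and 10.23 in μ-g, 10.41, 10.53 and 10.41 in 1-g, and 11.09, 11.22 and 10.64 in control. Both genes therefore lay in 3 tiers, with 2-g on top, control in the middle and the other magnet groups below. Selenbp1, a selenium-binding protein with methanethiol oxidase activity, showed the same tiers at 8.60, 8.92 and 8.49 in 2-g, 6.80, 7.22 and 7.10 in μ-g, 6.86, 7.20 and 7.11 in 1-g, and 8.40, 8.43 and 7.65 in control. Its neighbour Selenbp2 is nearly identical in sequence, so signal of the pair may be shared between their probes.

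Ero1a, the oxidase that passes electrons to protein disulphide isomerase in the endoplasmic reticulum, averaged 13.05 ± 0.16 in 2-g, 12.11 ± 0.20 in μ-g, 12.03 ± 0.14 in 1-g and 12.64 ± 0.32 in control (SD, n = 3 each). The lowest 2-g array of Ero1a, at 12.94, lay just above the highest control array, at 12.87. Cox4i2, the low-oxygen isoform of subunit 4 of cytochrome c oxidase, averaged 8.43 ± 0.14 in 2-g, 7.61 ± 0.15 in μ-g, 7.52 ± 0.16 in 1-g and 7.99 ± 0.29 in control. Rcor2, a corepressor of the histone demethylase Kdm1a, averaged 9.51 ± 0.17 in 2-g, 8.25 ± 0.11 in μ-g, 8.35 ± 0.07 in 1-g and 8.66 ± 0.24 in control. Ankrd37, an ankyrin repeat protein often used as a hypoxia readout, had 7.85, 7.74 and 7.88 in 2-g, 7.08, 7.01 and 6.79 in μ-g, 6.93, 6.74 and 6.66 in 1-g, and 7.10, 7.46 and 6.96 in control. For Ankrd37 no μ-g or 1-g array reached the lowest 2-g array, and the highest control array was replicate 2. Its promoter is shown because it holds the letters 4 times, on both strands, with capitals as above.
Ankrd37, chr8:45999851-46000100, minus strand: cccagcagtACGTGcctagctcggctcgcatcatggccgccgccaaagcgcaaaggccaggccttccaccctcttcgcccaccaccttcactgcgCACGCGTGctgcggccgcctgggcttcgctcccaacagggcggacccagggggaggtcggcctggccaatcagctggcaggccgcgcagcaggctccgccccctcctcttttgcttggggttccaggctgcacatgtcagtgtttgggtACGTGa

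The oxygenase members of the list lay nearer to 2 tiers than to 3. Tet2, which oxidises 5-methylcytosine, had 9.02, 8.84 and 8.85 in 2-g, 8.30, 8.15 and 8.41 in μ-g, 8.18, 8.28 and 8.20 in 1-g, and 8.15, 8.40 and 7.99 in control. Jmjd6, a lysyl hydroxylase of nuclear proteins, averaged 10.21 ± 0.12 in 2-g, 9.47 ± 0.06 in μ-g, 9.52 ± 0.09 in 1-g and 9.67 ± 0.21 in control. Alkbh5, of the same oxygen-dependent class, removes N6-methyladenosine from RNA and had the tightest 2-g arrays of the set, to 3 decimals 11.497, 11.484 and 11.480 in 2-g, 11.020, 11.025 and 11.022 in μ-g, 11.003, 11.001 and 11.001 in 1-g, and 11.023, 11.218 and 11.046 in control. Apart from control replicate 2, the Alkbh5 values outside 2-g spanned less than 0.1. From 33 listed 2-oxoglutarate dioxygenases outside the named families, 27 exceeded the floor and Tet2, Jmjd6 and Alkbh5 were the 3 in the set. This list was also chosen with earlier results of these data known. Zfp395, a zinc finger protein, averaged 9.14 ± 0.10 in 2-g, 8.48 ± 0.05 in μ-g, 8.46 ± 0.04 in 1-g and 8.56 ± 0.26 in control, and Narf had a margin of 0.41.

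**Figure D2:**
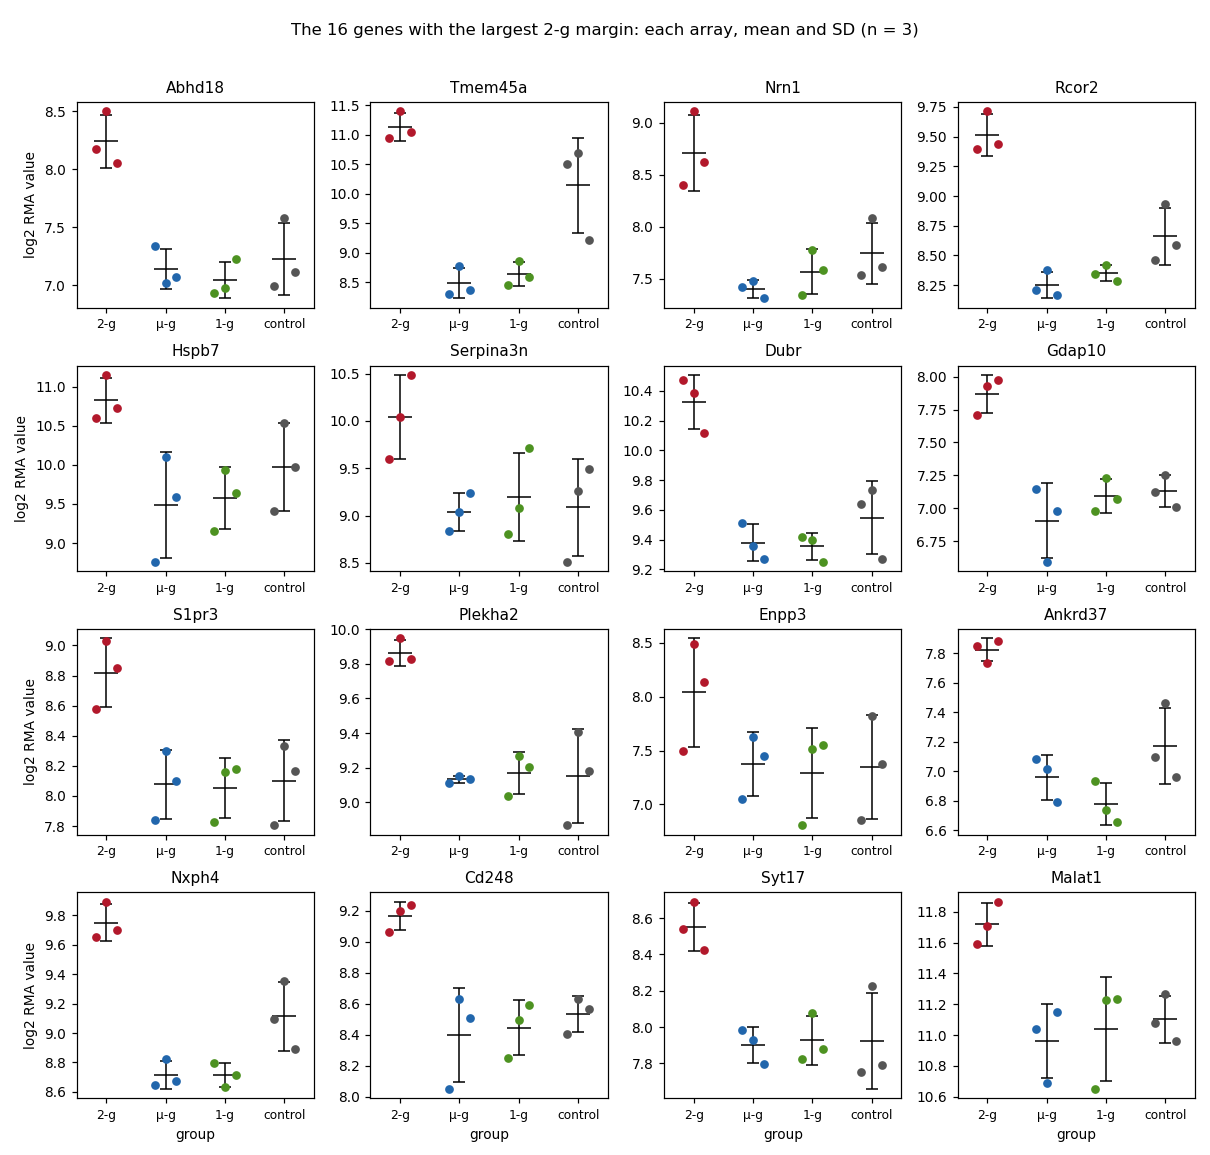
The 16 genes with the largest margins, with each array as a point on the log2 scale and the group mean and SD (n = 3) in black, in the order 2-g, μ-g, 1-g and control. In Tmem45a control lies 1.66 above μ-g, and Serpina3n and Enpp3 are the panels in which 2-g overlaps with another group.

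The largest margin of all was that of Abhd18, an abhydrolase-domain protein, at 1.01. Abhd18 had 8.17, 8.50 and 8.05 in 2-g, 7.33, 7.02 and 7.07 in μ-g, 6.93, 6.97 and 7.23 in 1-g, and 6.99, 7.58 and 7.12 in control. The other 3 groups of Abhd18 overlapped with each other and none reached 2-g. Hspb7, a small heat shock protein of muscle, averaged 10.83 ± 0.29 in 2-g, 9.49 ± 0.68 in μ-g, 9.58 ± 0.40 in 1-g and 9.97 ± 0.56 in control. Plekha2, which binds phosphoinositides, had 9.81, 9.95 and 9.83 in 2-g, 9.11, 9.15 and 9.14 in μ-g, 9.03, 9.27 and 9.20 in 1-g, and 8.87, 9.41 and 9.18 in control. Syt17, a synaptotagmin, averaged 8.55 ± 0.13 in 2-g, 7.90 ± 0.10 in μ-g, 7.93 ± 0.13 in 1-g and 7.92 ± 0.26 in control. In Plekha2 and Syt17 the other 3 group means lay within 0.05 of each other.

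The 20 matrix and secreted proteins had a median margin of 0.48. In 12 of them the 2-g arrays did not overlap with another group, as in 76 of the 103 genes and 2.59% of all genes. From 78 listed matrix genes outside the collagen, Adamts, P4ha and Plod families, 52 exceeded the floor and 8 (15.4%) were in the set, namely Cd248, Mmp13, Sned1, Olfml3, Prelp, Ccdc80, Igsf10 and Timp3. That list too was chosen with earlier results of these data known. The whole set holds 103 of the 10987 genes above the floor outside the named families. Cd248, or endosialin, a stromal cell surface glycoprotein, had 9.07, 9.20 and 9.24 in 2-g, 8.05, 8.63 and 8.51 in μ-g, 8.25, 8.49 and 8.60 in 1-g, and 8.41, 8.63 and 8.57 in control. Mmp13, the collagenase of bone and cartilage, had 9.93, 10.12 and 10.78 in 2-g, 9.56, 9.66 and 9.69 in μ-g, 9.38, 9.48 and 9.86 in 1-g, and 9.43, 9.79 and 9.80 in control. The Mmp13 margin of 0.60 was raised by 2-g replicate 3, but the gene stayed in the set when any single array was left out. Its lowest 2-g array exceeded the highest array of another group by less than 0.1. Olfml3, a secreted olfactomedin-like protein, overlapped between groups, with 12.66, 13.18 and 12.88 in 2-g, 12.04, 12.81 and 12.26 in μ-g, 12.06, 12.68 and 12.35 in 1-g, and 12.01, 12.75 and 12.24 in control. In Olfml3 replicate 2 was the highest array of every group.

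Sned1, a matrix protein with sushi and nidogen domains, ordered its groups differently, at 10.24 ± 0.23 in 2-g, 9.70 ± 0.27 in μ-g, 9.68 ± 0.34 in 1-g and 9.41 ± 0.23 in control. Ccdc80, Igsf10 and Timp3, an inhibitor of metalloproteinases, had margins of 0.46, 0.43 and 0.42. Prelp, a leucine-rich proteoglycan, averaged 7.85 ± 0.16 in 2-g, 7.31 ± 0.30 in μ-g, 7.38 ± 0.18 in 1-g and 7.31 ± 0.33 in control. In Igsf10 too the μ-g and 1-g means, at 7.48 and 7.49, stood above the control mean of 7.32. None of the 72 measured genes of the matrix list passed the test in μ-g v.s. control or in 1-g v.s. control. Over all genes 0.943% and 0.356% passed in either direction, so 0 calls among 72 genes says little about the matrix genes.

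Several secreted signals were in the set. Nrn1, or neuritin, which promotes neurite growth, had the largest margin after Abhd18 and Tmem45a, with 8.40, 9.11 and 8.62 in 2-g, 7.41, 7.48 and 7.31 in μ-g, 7.34, 7.77 and 7.58 in 1-g, and 7.53, 8.08 and 7.61 in control. Vegfd, a lymphangiogenic growth factor, averaged 10.01 ± 0.19 in 2-g, 9.48 ± 0.13 in μ-g, 9.46 ± 0.26 in 1-g and 9.54 ± 0.22 in control. Penk, the enkephalin precursor, had the widest 2-g arrays of the set, with 8.03, 9.34 and 8.95 in 2-g, 7.63, 8.47 and 8.26 in μ-g, 7.42, 8.51 and 8.40 in 1-g, and 7.46, 8.75 and 8.52 in control. In Penk replicate 1 was the lowest array of every group, and 2-g replicate 1 lay below 2 arrays of each other group. Nxph4, a neurexin ligand, averaged 9.75 ± 0.13 in 2-g, 8.71 ± 0.09 in μ-g, 8.71 ± 0.08 in 1-g and 9.11 ± 0.23 in control. Ptn, or pleiotrophin, a heparin-binding growth factor of bone matrix, averaged 8.55 ± 0.38 in 2-g, 8.05 ± 0.30 in μ-g, 8.01 ± 0.43 in 1-g and 8.07 ± 0.29 in control. Serpina3n, a protease inhibitor from a mouse cluster of close copies whose probes may share signal, had 9.60, 10.04 and 10.49 in 2-g, 8.84, 9.03 and 9.24 in μ-g, 8.81, 9.08 and 9.71 in 1-g, and 8.51, 9.26 and 9.49 in control, so that groups overlapped.

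Among the 17 receptors and signalling proteins, the median margin was 0.45. In 12 of them the 2-g arrays did not overlap with another group (76 of the 103 genes, 2.59% of all genes). Both S1pr3 and S1pr1 are receptors of sphingosine 1-phosphate, a lipid signal. S1pr3 had 8.58, 9.03 and 8.85 in 2-g, 7.84, 8.30 and 8.10 in μ-g, 7.82, 8.16 and 8.18 in 1-g, and 7.80, 8.33 and 8.16 in control. S1pr1 had 9.84, 10.15 and 10.20 in 2-g, 9.54, 9.79 and 9.60 in μ-g, 9.55, 9.55 and 9.68 in 1-g, and 9.31, 9.81 and 9.64 in control. For both receptors the μ-g, 1-g and control means lay within 0.06 of each other, and the lowest 2-g array exceeded every other array. Clec14a, a C-type lectin known from endothelium, had 7.79, 8.56 and 8.48 in 2-g, 7.73, 7.88 and 7.78 in μ-g, 7.36, 7.64 and 8.08 in 1-g, and 7.29, 7.80 and 7.89 in control. The 2-g replicate 1 of Clec14a lay among the arrays of the other groups. Ackr3, the scavenging receptor of the chemokine CXCL12, chosen after its values were seen, averaged 9.96 ± 0.16 in 2-g, 9.37 ± 0.15 in μ-g, 9.33 ± 0.17 in 1-g and 9.47 ± 0.23 in control. Gpr153 and Rasgrf1, a Ras exchange factor, had margins of 0.36 and 0.35.

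The 10 nuclear or RNA-modifying proteins were close to the margin, with a highest value of 0.45. Creb3l1, a transcription factor of the endoplasmic reticulum that raises type I collagen in osteoblasts, averaged 10.69 ± 0.06 in 2-g, 10.25 ± 0.04 in μ-g, 10.29 ± 0.04 in 1-g and 10.31 ± 0.14 in control. Eid1, an inhibitor of the acetyltransferases p300 and CBP, had 9.65, 9.76 and 9.60 in 2-g, 8.84, 8.83 and 8.75 in μ-g, 8.90, 8.96 and 8.97 in 1-g, and 9.34, 9.39 and 9.13 in control. Ciart, a repressor of the circadian clock activators Clock and Bmal1, had 10.78, 10.68 and 10.52 in 2-g, 9.80, 9.55 and 9.25 in μ-g, 9.85, 9.40 and 9.52 in 1-g, and 10.46, 10.26 and 10.17 in control. Eid1 and Ciart lay in 3 separate tiers with no overlap, in the same order as Tmem45a, Pgm1 and Selenbp1. The promoter of Ciart is shown because its capitals include 3 copies of CACGTG, the E-box letters bound by the clock activators. ACGTG is contained in CACGTG, so each copy also counts as a HIF-type match.
Ciart, chr3:95882229-95882478, minus strand: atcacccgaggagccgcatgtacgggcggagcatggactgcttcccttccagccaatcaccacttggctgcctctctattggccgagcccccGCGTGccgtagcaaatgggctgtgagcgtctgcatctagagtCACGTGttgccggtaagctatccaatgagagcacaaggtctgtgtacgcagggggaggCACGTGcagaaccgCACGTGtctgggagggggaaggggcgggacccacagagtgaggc
CACGTG occurred in 10.7% of the promoters of the set that could be matched and in 12.1% of those of the genes above the floor outside the named families.

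Of the 10 non-coding RNAs, 7 are long non-coding RNAs in the RefSeq annotation. Malat1, an abundant nuclear RNA, had 11.59, 11.71 and 11.87 in 2-g, 11.04, 10.69 and 11.15 in μ-g, 10.65, 11.23 and 11.23 in 1-g, and 11.08, 11.27 and 10.96 in control. Dubr averaged 10.32 ± 0.18 in 2-g, 9.38 ± 0.12 in μ-g, 9.35 ± 0.09 in 1-g and 9.55 ± 0.25 in control, and Gdap10 averaged 7.87 ± 0.14 in 2-g, 6.91 ± 0.28 in μ-g, 7.09 ± 0.13 in 1-g and 7.13 ± 0.12 in control. In these 3 RNAs all 2-g arrays lay above the other 9, as in 7 of the 10 non-coding RNAs. The same held in 76 genes of the whole set and in 2.59% of all genes. Such a lack of overlap follows closely from the rule that chose the set. The clusters of the microRNA gene Mir15a and the small nucleolar RNA Snora31 had margins of 0.38 and 0.48, and their signal does not separate the mature RNA from a host transcript.

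Among the enzymes of metabolism, Cox7a1 and Selenbp2 had means ordered as in Tmem45a and Pgm1. The 2-g mean was highest, control was next and the other magnet groups lay below, but single 2-g and control arrays overlapped. Cox7a1, the heart and muscle isoform of a cytochrome c oxidase subunit, had 9.85, 10.14 and 9.67 in 2-g, 7.80, 8.18 and 8.04 in μ-g, 8.10, 8.25 and 8.16 in 1-g, and 9.38, 9.82 and 9.03 in control. Its 2-g level was 3.67-fold that of μ-g and 1.39-fold that of control, where control replicate 2 overlapped with 2-g. Selenbp2 had 8.28, 8.04 and 8.10 in 2-g, 6.99, 7.17 and 7.20 in μ-g, 6.66, 6.79 and 6.96 in 1-g, and 8.07, 7.91 and 7.33 in control. Control replicate 1 of Selenbp2 thus lay above 2-g replicate 2. Enpp3, a nucleotide pyrophosphatase, overlapped between groups, at 8.04 ± 0.50 in 2-g, 7.38 ± 0.29 in μ-g, 7.29 ± 0.42 in 1-g and 7.35 ± 0.48 in control. Phospho1, the phosphatase that starts matrix mineralisation, stood just inside the margin at 0.354, with Rasgrf1 at 0.355 and Ccdc58 at the limit itself. The nearest genes outside it were Bmt2 at 0.347, Saa4 at 0.347 and Cpq at 0.346, so the limit divides genes whose 2-g margins hardly differ.

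For 5 genes of the set the array held further transcript clusters, read from the same RNA. The other clusters of Ciart, Igsf10, Tent5a and Zfp395 also had 2-g as the highest group, with margins of 0.25 for Ciart, 0.31 and 0.44 for Igsf10, 0.30 for Tent5a and 0.35 for Zfp395. Unc13a, a priming factor of synaptic vesicles, was the exception. Its other 2 clusters lay below the floor, with 2-g means of 6.65 and 6.42 and margins of -0.02 and 0.08.

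The comparisons that do not hold the 2-g group were tested with limma over all 19938 genes. Tested in this way, 6 of the 103 genes fell in μ-g v.s. control and 0 rose (0.431% of all genes fell and 0.512% rose). The 6 were Tmem45a, Cox7a1, Selenbp1, Ciart, Pgm1 and Eid1. Tmem45a fell by 1.66 on the log2 scale (SE 0.291, limma adjusted p = 0.0236), to 8.48 ± 0.25 in μ-g against 10.14 ± 0.80 in control. Cox7a1 fell by 1.40 (SE 0.168, limma adjusted p = 0.00735) and Selenbp1 by 1.12 (SE 0.187, limma adjusted p = 0.0207). For each of the 6, all 3 μ-g arrays lay below all 3 control arrays, which follows closely from such a call and adds no support. The share of all genes with this separation was not counted. Ciart fell by 0.77 (SE 0.139, limma adjusted p = 0.0278), Pgm1 by 0.67 (SE 0.116, limma adjusted p = 0.0232) and Eid1 by 0.48 (SE 0.069, limma adjusted p = 0.0108). At an unadjusted p under 0.05, 19 of the 103 genes were lower (4.14% of all genes) and 1 was higher (9.91%). The calls rest on few arrays. Without control replicate 2 only Cox7a1 (a fall by 1.20, limma adjusted p = 0.00773) and Eid1 (a fall by 0.42, limma adjusted p = 0.0479) passed, and without μ-g replicate 3 none did.

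In 1-g v.s. control 3 of the 103 genes fell and 0 rose (0.171% of all genes fell and 0.186% rose). Cox7a1 fell by 1.24 (limma adjusted p = 0.0156), Selenbp1 by 1.10 (limma adjusted p = 0.0296) and Selenbp2 by 0.97 (limma adjusted p = 0.0228). Tmem45a averaged 8.64 ± 0.21 in 1-g against 10.14 ± 0.80 in control, and Ciart and Eid1 differed by -0.71 and -0.34, with limma adjusted p values of 0.0510, 0.0513 and 0.0554 for the 3 genes. Arrays of 1-g and control with the same replicate number deviated together, and with the number as a block 12 of the 103 genes fell and 0 rose (0.888% of all genes fell). The 12 were the 3 genes above and Tmem45a, Ciart, Eid1, Pgm1, Ero1a, Rcor2, Nxph4, Cox4i2 and Cryab, with a blocked adjusted p of 0.00448 for Tmem45a and 0.00119 for Ciart. Without control replicate 2, Cox7a1 was the only one of the 103 genes called without the block (a fall by 1.04, limma adjusted p = 0.0266), and without 1-g replicate 1 or 1-g replicate 3 none was. Without control replicate 3 the count was 7. At an unadjusted p under 0.05, 17 of the 103 genes were lower (2.98% of all genes) and 1 was higher (7.77%). This comparison and the one of μ-g share the control arrays.

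**Figure D3:**
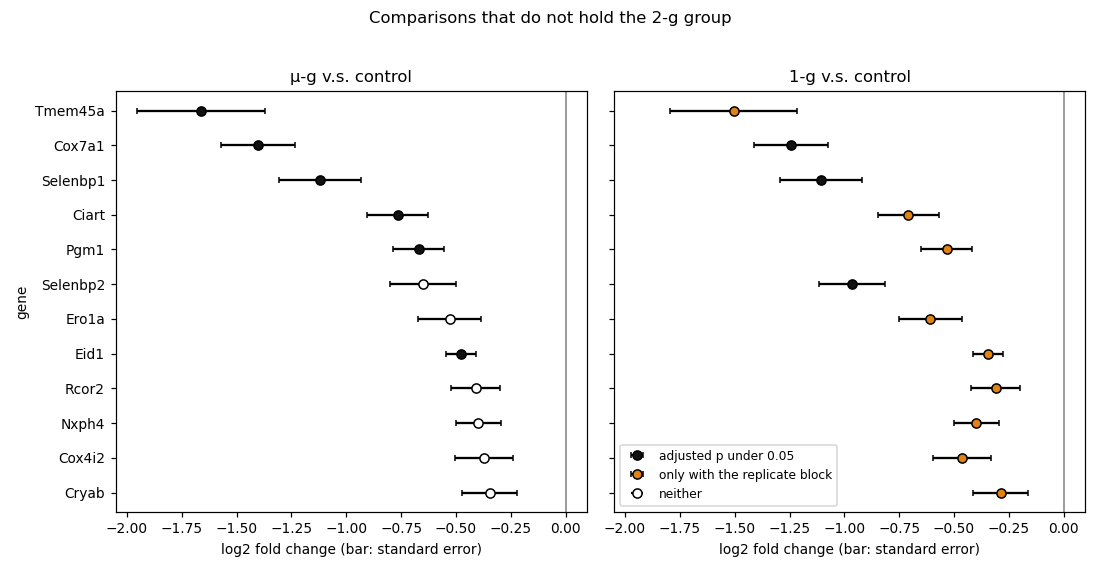
Log2 fold change (point) and standard error (bar) of the 12 genes of the set that were called in μ-g v.s. control, or in 1-g v.s. control with or without the replicate number as a block. All 12 lie left of 0 in both panels, black points passed the limma test without a block and orange points only with it in 1-g v.s. control.

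Among the 11 HIF-list genes the median log2 fold change was -0.37 in μ-g v.s. control and -0.40 in 1-g v.s. control, and 10 of the 11 were lower in each. Without control replicate 2 these medians were -0.21 and -0.25, with 9 of the 11 lower in each. Over the other 92 genes of the set the medians were -0.05 in μ-g v.s. control and -0.06 in 1-g v.s. control, beside 0.02 in both over all genes, and without control replicate 2 they turned to 0.02 and 0.04. Of the 40 genes of the same HIF list that were measured but were not in the set, 9 fell in μ-g v.s. control (Pgk1, Ldha, Tpi1, Pgam1, Pkm, Car12, Pygl, Cited2 and Mif) and Epas1, which encodes the HIF-2α subunit, rose by 0.64 (limma adjusted p = 0.000852). In 1-g v.s. control 5 of those 40 genes fell and Epas1 again rose. When control replicate 2 was left out, only Pgk1 and Pkm of the 40 fell in μ-g v.s. control and none did in 1-g v.s. control, while Epas1 rose in both. Epas1 was called in each comparison without any other single array of the groups compared too, except in 1-g v.s. control without 1-g replicate 1, and the number of the 40 that fell was 0 without μ-g replicate 3 in μ-g v.s. control. The 39 genes of the families left out had a median of -0.36 in μ-g v.s. control and -0.34 in 1-g v.s. control, or -0.26 and -0.27 without control replicate 2. Matrix proteins, receptors and non-coding RNAs of the set stayed nearer 0, with medians of -0.04 for the 20 matrix and secreted proteins, -0.04 for the 17 receptors and signalling proteins and -0.13 for the 10 non-coding RNAs in μ-g v.s. control. The medians of the matrix and secreted proteins and of the receptors turned to 0.08 and 0.09 without control replicate 2, and that of the non-coding RNAs was -0.07. None of these 47 genes was called in either comparison with the main test. In μ-g v.s. control 0.943% of all genes were called and in 1-g v.s. control 0.356%, so this says little about the 47.

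Of the 103 genes, 78 were lower in μ-g than in control and 72 were lower in 1-g than in control (39.0% and 41.6% of all genes). These counts rested on control replicate 2, without which 46 were lower in μ-g than in control and 44 were lower in 1-g than in control (38.5% and 40.5% of all genes). The median difference over the 103 genes was -0.07 in both comparisons with all arrays, against 0.01 in μ-g v.s. control and 0.03 in 1-g v.s. control without control replicate 2. Without 1-g replicate 1 the count in 1-g v.s. control was 50 and the median 0.01, and without μ-g replicate 1 the count in μ-g v.s. control was 57 and the median -0.02. In 11 genes all μ-g and all 1-g arrays lay below all control arrays (2.26% of all genes), namely Ciart, Cox7a1, Eid1, F730043M19Rik, Nxph4, Pgm1, Rcor2, Selenbp1, Selenbp2, Sik1 and Tmem45a. The same 11 lay below the other 2 control arrays when control replicate 2 was left out (4.2% of all genes), and 23 genes did so without control replicate 1 (4.58% of all genes) and 21 without control replicate 3 (3.72% of all genes). Tent5a, a cytoplasmic poly(A) polymerase, was the 1 gene with all of them above control (5.81% of all genes), at 9.29, 9.40 and 9.31 in μ-g and 9.22, 9.36 and 9.35 in 1-g against 9.14, 9.21 and 9.14 in control. It was 1 of 9 such genes without control replicate 2 (9.45% of all genes), with Tet2, Ccdc80, Igsf10 and Syt17 among the others. In 43 of the 103 genes the μ-g and 1-g means lay within 0.1 of the control mean, as in 49.1% of the genes above the floor outside the named families. S1pr3, Plekha2, Syt17, Olfml3 and Creb3l1 were among these 43.

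In μ-g v.s. 1-g limma called 0 of the 103 genes and 0 of all genes (0.0% in either direction), and 0 of the 103 had an unadjusted p under 0.05, beside 260 genes higher (1.3%) and 177 lower (0.888%) over all. The largest difference was that of Selenbp2, which was 0.32 higher in μ-g than in 1-g. The 95% interval of the difference lay within 0.5 of 0 for 88 of the 103 genes, and the widest interval reached 0.86. The data therefore bound most of these differences without showing that they are 0.

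The arrays of 1 group differed from each other more for these genes than for most. The median SD of the 103 genes was 0.14 in 2-g, 0.14 in μ-g, 0.13 in 1-g and 0.22 in control, against 0.08 to 0.09 over the genes above the floor outside the named families. In control replicate 2, 84 of the 103 genes had their highest control value. The 39 genes of the families left out shared this, with all 39 above the control mean there by a median of 0.29. Replicate 1 was the lowest array for 59 genes in 2-g, 56 in μ-g, 71 in 1-g and 61 in control. Without control replicate 2 the rule took 140 genes, 100 of them shared with the 103, and without 2-g replicate 1 it took 164. In 48 of the 103 genes no single array was needed for the choice, Abhd18 and Tmem45a among them.

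**Figure D4:**
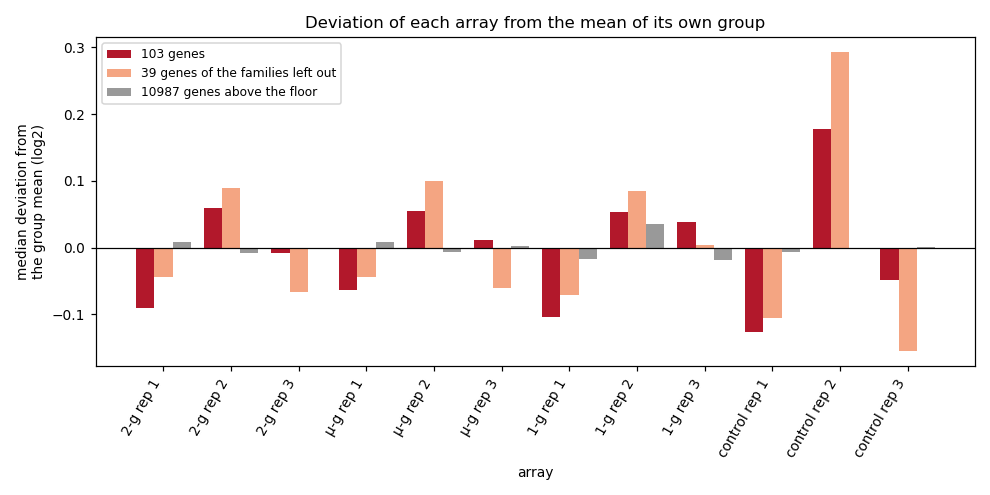
Median deviation of each array from the mean of its own group (log2), over the 103 genes, the 39 genes of the families left out and 10987 genes above the floor. The bars of control replicate 2 reach 0.18 and 0.29 for the 103 and the 39 genes, while the grey bar of that array is at 0.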

How the data were processed

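Labelled cDNA from MLO-Y4 RNA was read on Mouse Gene 1.0 ST arrays (Affymetrix), with 3 arrays in each group. RMA was the authors' normalization, and the log2 values they deposited cover 28856 transcript clusters and 12 arrays. No source used here gives the genome build, and scanner files were not used here. Clusters with several symbols (1621) and with none or not listed (5446) were left out. The 21789 clusters with 1 symbol gave 19938 genes, and 999 genes with several clusters were read from the cluster with the highest mean. No column was unused and no arrays held identical values.

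The 4 group means were estimated together from the 12 arrays by limma (version 3.58.1, R 4.3.3), using lmFit and eBayes (8 residual and 4.92 prior degrees of freedom), with Benjamini-Hochberg adjustment over 19938 genes and a threshold of 0.05. Figures were drawn with matplotlib 3.10.9. The scripts were tested on simulated data. The number of arrays limits the precision.

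The 103 genes, the gene lists and the left-out families were chosen with earlier results of these data known. Genes named in the text were the 16 with the largest margin, the 3 nearest the margin on each side, those called in a comparison without 2-g, up to 8 by margin from each list, those whose other clusters differ, and those with the highest and the lowest 2-g SD. Others were chosen after their values were seen. The lists covered genes taken as HIF-induced, glycolysis, glycogen, dioxygenases, matrix, bone, protein folding, growth factors, G-protein signalling, mitochondria, the clock, granule proteases, p53 and stress, and markers of 7 cell types. The lists of glycolysis, clock, granule protease and p53 genes held 0 genes of the set, that of growth factors 5, of G-protein signalling 4, of mitochondria, bone and protein folding 2 each, and of glycogen 1. Ciart, a clock repressor in the set, was not on the clock list. The glycolysis list excluded the families left out by name, of which Pfkl, Pfkp, Aldoc and Eno2 met the 2-g margin. Of its 8 measured genes, 7 had their highest group mean in 2-g.

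Whether replicate numbers pair the arrays is not stated in the labels. The check is the correlation over all genes of the deviations of same-numbered arrays from their group means, which was 0.32, 0.42 and 0.26 between 1-g and control and 0.38, 0.29 and 0.26 between μ-g and 1-g. A block by number was therefore used as a second fit for these, and changed no call in μ-g v.s. 1-g. Alternatives tried were a fit of only the 6 arrays compared, the block, 2 filters on level, 2 scalings, another variance prior, other clusters, other margins and floors, and leaving out each array. Promoters (RefSeq, GRCm38.p6) were matched by gene for 75 of the 103 genes.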

Additional observations from a re-analysis of the deposited data

How the results depend on the processing

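In μ-g v.s. control, where 6 genes of the set were called, a fit of only the 6 arrays compared called 0, and leaving out 1 array gave 0 to 8. Between μ-g and control the deviations of same-numbered arrays correlated at 0.43, 0.48 and 0.02, so the numbers do not pair these groups for replicate 3, and the replicate block called 19, of which 18 fell and 1 rose (1.91% of all genes fell and 4.02% rose). With the replicate block and without control replicate 2, an alternative chosen after seeing the data, the count was 11. In 1-g v.s. control, where 3 were called, the fit of 6 arrays called 0, the replicate block 12, the replicate block without control replicate 2 (chosen after seeing the data) 6, the filter at an overall mean above 7 gave 6, the filter at the median level 5 and quantile normalization 6, and leaving out 1 array gave 0 to 7. Among the 46 genes of the set named by rule, the 9 calls over both comparisons became 0 with 6 arrays, 24 with the replicate block, 15 with the replicate block without control replicate 2, and 3 to 15 when 1 array was left out. In μ-g v.s. 1-g limma called 0 of the 103 genes under every alternative run, as it did without them, where 0 had an unadjusted p under 0.05. No gene of the set that was called changed direction under an alternative. The cause of these changes was not tested. The fits that leave arrays out also hold fewer arrays, and this was not separated from the values of the arrays removed. The set of 103 genes became 265 at a margin of 0.25, 35 at a margin of 0.5, 38 when the margin was asked in each of the 3 replicate numbers (replicate block by number), and 79 to 164 when 1 array was left out. Without the control condition, chosen after seeing the data, it was 212. Signal over background was not known, since only normalized values were used.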
